A study of Drosophila melanogaster with 2 samples.

Results

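The genes described here are 10 heat shock and chaperone genes of Drosophila melanogaster, chosen by name from the 13945 protein-coding genes on the chromosome arms. They are the small heat shock protein genes Hsp22, Hsp23, Hsp26, Hsp27 and Hsp67Bc, the Hsp90 gene Hsp83, the constitutive Hsp70 relatives Hsc70-3, Hsc70-4 and Hsc70-5, and Hsf, which encodes the heat shock factor. Peak calls around each gene were read from chromatin immunoprecipitation and sequencing (ChIP-seq) of CG43689-eGFP, the product of the gene CG43689 fused to enhanced green fluorescent protein. The material was whole embryos 8 to 24 h old from the transgenic strain CG43689-GFP, sonicated to fragments of 200 to 800 bp and precipitated with an anti-GFP antibody according to the sample descriptions, while a separate field lists the antibody as CG43689. The 2 samples were biological replicates of this 1 group, with no heat shock treatment named in the labels and no second condition. No control library was analysed here. Whole embryos mix all tissues, so a peak can come from any of them, and the sources used here do not state what drives the fusion gene or how many embryos were pooled.

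Heat shock proteins are molecular chaperones: they bind unfolded or misfolded proteins, keep them from aggregating and help them refold. On heat stress the heat shock factor binds arrays of short inverted repeats, the heat shock elements, upstream of the inducible genes. In flies these promoters are also known for GAGA factor, which binds GA repeats and keeps the promoter open, and for RNA polymerase II paused just downstream of the start site. Several small heat shock genes and Hsp83 are also transcribed without heat, during normal development and in germ cells, while the cognate Hsc70 genes serve the cytosol, the endoplasmic reticulum and the mitochondria in all cells.

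A CG43689-eGFP peak passed the authors' threshold at the start site of 4 of the 10 genes: Hsp27, Hsp83, Hsp26 and Hsc70-5. The strongest lay 176 bp upstream of Hsp27 with a signal of 295, in the authors' units, followed by Hsp83 at 146, Hsp26 at 119 and Hsc70-5 at 77.6. Hsp22, Hsp67Bc, Hsp23 and Hsc70-4 had candidate regions at their start sites that did not pass, and Hsc70-3 and Hsf had no candidate in the pooled data at all. In these lists the summit is the base of a peak at which the caller placed its maximum, the signal is the authors' own value for the peak, and the rank counts peaks from the highest signal down within 1 list. The threshold was set on the irreproducible discovery rate, a measure of how alike peaks rank between sets of calls. Of the pooled ranked peaks with a score of 830 or more, the lowest score in the pooled thresholded list, 88 of 2176 (4.04%) are not in the thresholded list analysed here, so a candidate is called thresholded only by its presence in that list. None of those 88 lay in a window of the 10 genes or of the 48 further chaperone genes described at the end. A start site means within 500 bp of any annotated start of the gene, and the gene window means the gene body with 2 kb on each side.

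The DNA under the peaks of the small heat shock genes and Hsp83 is shown first, since the positions of heat shock elements and repeats in it are referred to below. Each stretch holds 201 bases centred on a pooled summit, read 5′ to 3′ on the strand of the gene from the Release 6 assembly (dm6) as distributed by RefSeq. Capitals mark heat shock elements of 2 inverted units, GAANNTTC or TTCNNGAA, where N is any base.
Hsp27 upstream peak, chr3L:9383787-9383987, forward strand: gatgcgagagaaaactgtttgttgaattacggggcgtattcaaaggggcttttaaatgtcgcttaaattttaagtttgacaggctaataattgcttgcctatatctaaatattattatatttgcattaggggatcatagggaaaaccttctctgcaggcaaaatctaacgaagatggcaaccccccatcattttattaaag
Hsp26 upstream peak, chr3L:9377447-9377647, reverse strand: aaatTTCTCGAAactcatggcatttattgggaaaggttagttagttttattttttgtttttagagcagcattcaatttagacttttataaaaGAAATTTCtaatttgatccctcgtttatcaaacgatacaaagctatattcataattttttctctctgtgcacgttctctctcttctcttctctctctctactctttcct
Hsp83 start site peak, chr3L:3192986-3193186, forward strand: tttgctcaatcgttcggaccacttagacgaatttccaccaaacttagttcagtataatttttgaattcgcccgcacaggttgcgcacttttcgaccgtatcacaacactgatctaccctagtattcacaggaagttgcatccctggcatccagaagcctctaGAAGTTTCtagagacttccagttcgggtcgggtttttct
Hsp83 intron peak, chr3L:3194151-3194351, forward strand: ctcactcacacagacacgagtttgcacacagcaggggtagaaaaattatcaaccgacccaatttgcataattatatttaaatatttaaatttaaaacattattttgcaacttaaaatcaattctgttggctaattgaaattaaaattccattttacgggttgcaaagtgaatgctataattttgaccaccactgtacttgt
The Hsp26 stretch held 2 elements and the Hsp83 start site stretch held 1, while the Hsp27 and Hsp83 intron stretches held none. Of the 201 bases, A or T made up 128 at Hsp27, 139 at Hsp26, 110 at the Hsp83 start site and 138 in the Hsp83 intron.

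The small heat shock genes lie side by side at cytological region 67B, which was taken as 1 locus. From the end of Hsp67Bc to the end of Hsp27 it spans chr3L:9371511-9385694 of dm6, 14184 bp, and holds the 5 small heat shock genes named above together with Hsp67Ba and Hsp67Bb, the last of these annotated as CG4456 and overlapping Hsp22. CG4461, a further gene of this family, lies between Hsp22 and Hsp26. With 2 kb on each side the pooled list of all ranked candidates had 20 summits there, of median signal 28.2. Over the whole genome the pooled thresholded list held 2088 peaks, against 151546 in the pooled ranked list. Of the 20 summits in the locus, 2 passed the threshold in the pooled list. They lay 6340 bp apart, 1 upstream of Hsp27 and 1 upstream of Hsp26. The conservative pooled list and the replicate 1 list also held 2 summits in the locus, and the replicate 2 list held 3.

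**Figure D1:**
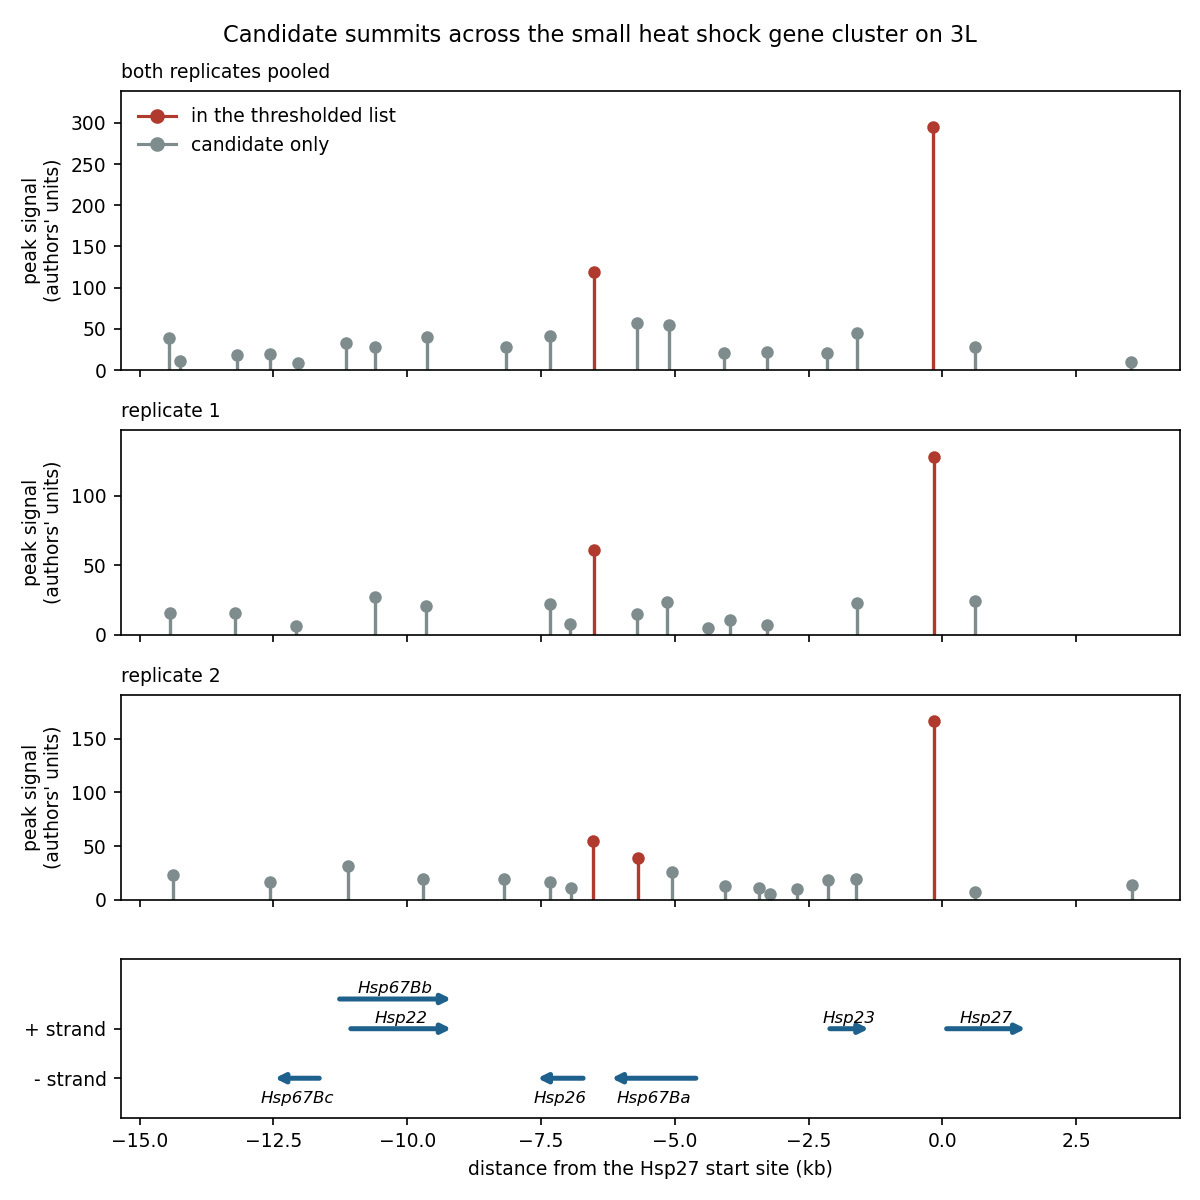
Candidate summits across the small heat shock gene cluster, with distance from the Hsp27 start site in kb on the x axis and peak signal in the authors' units on the y axis, for the pooled list and each replicate's list. Red marks thresholded summits and grey marks other candidates, and arrows show the genes. The summits upstream of Hsp27 (pooled signal 295) and Hsp26 (119) stand above all others in each panel.

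Hsp27 (FBgn0001226, chr3L:9384063-9385694, forward strand) encodes a small heat shock protein that is also present in unstressed developing tissues. Its peak spanned chr3L:9383831-9383980 with the summit at 9383887. The signal was 128 in the replicate 1 list and 166 in the replicate 2 list, against 295 in the pooled list. Both replicates placed the summit at 9383897, 166 bp upstream of the start, and the peak passed the threshold in each. In rank it was 105 of 2088 pooled thresholded peaks, 129 of 1253 in replicate 1 and 90 of 1265 in replicate 2, the highest of the 10 genes in all 3 lists. The peak was 150 bp wide in the pooled list, narrower than that list's median of 300 bp. In replicate 2 it was 108 bp wide, against a median of 280 bp. In replicate 1 it was 284 bp wide, equal to the median of that list. Among the 1166 protein-coding genes with a thresholded pooled summit at a start site, Hsp27 stood 98th by its strongest one.

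Hsp23 (FBgn0001224, chr3L:9381882-9382765, forward strand), another small heat shock protein gene, lies just upstream of Hsp27. The Hsp27 peak falls within its 2 kb window, 2005 bp downstream of the Hsp23 start, and no other thresholded peak does. At the Hsp23 start site itself the only pooled candidate had a signal of 21.1, 33 bp downstream of the start in the 5' UTR, at rank 62685 of 151546. Replicate 1 had no candidate within 500 bp of the start and replicate 2 had one of 18.2. A stronger candidate of 44.8 lay in the coding sequence, 577 bp from the start, with 23.3 in replicate 1 and 19.1 in replicate 2, and was thresholded in none of the lists. So of the neighbours Hsp27 and Hsp23, which are read in the same direction, the first had a thresholded start site peak in every list and the second in none.

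Hsp26 (FBgn0001225, chr3L:9376418-9377427, reverse strand) encodes a small heat shock protein made in the germ line as well as under stress. Its peak spanned chr3L:9377397-9377696 with the summit 120 bp upstream of the outer of 2 annotated starts. The signal was 61.0 in replicate 1 and 54.4 in replicate 2, against 119 in the pooled list, and it was thresholded in all of them. Its rank was 608 of 2088 in the pooled list, 583 of 1253 in replicate 1 and 795 of 1265 in replicate 2. Upstream of Hsp26, 928 bp from its start and inside Hsp67Ba, lay the third strongest candidate of the locus, with a pooled signal of 57.1. At that place the replicates differed: replicate 2 had a thresholded summit of signal 38.6, and replicate 1 had a candidate of 15.1 that did not pass. The pooled candidate did not pass either, with a deposited score of 742 where the lowest score of a thresholded pooled peak was 830. The fourth candidate of the locus, of 54.1, was also inside Hsp67Ba.

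Hsp22 and Hsp67Bc, at the other end of the locus, had no thresholded peak in any list. Hsp22 (FBgn0001223, chr3L:9372931-9374964, forward strand), a small heat shock protein of mitochondria, has 2 annotated starts. Near the inner start the best pooled candidate had a signal of 40.6, 429 bp downstream in the coding sequence, with 20.7 in replicate 1 and 19.4 in replicate 2. At the outer start a candidate of 32.3 lay 21 bp upstream, with 31.3 in replicate 2 and no match within 100 bp in replicate 1. Hsp67Bc (FBgn0001229, chr3L:9371511-9372497, reverse strand), whose product takes part in protein quality control with the co-chaperone Starvin, faces Hsp22 head to head. The same summit of 32.3 was its best start site candidate, 413 bp upstream. Both genes were thus below all 3 of Hsp27, Hsp83 and Hsp26 in each list where they had a value.

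Hsp83 (FBgn0001233, chr3L:3192969-3197059, forward strand) encodes the cytosolic Hsp90 chaperone, abundant in eggs and embryos without heat. It had a pair of thresholded peaks, both in all 4 thresholded lists. The first spanned chr3L:3192936-3193235, and its summit lay 117 bp downstream of the outer start, in the 5' UTR, between that start and the inner one at 3193216. Its signal was 81.3 in replicate 1 and 62.3 in replicate 2, against 146 in the pooled list, where it ranked 409. The second spanned chr3L:3194101-3194400 in the intron, with the summit 1035 bp downstream of the inner start and 1165 bp from the first summit. Its signal was 54.6 in replicate 1 and 81.0 in replicate 2, against 135 in the pooled list, where it ranked 477. The replicates therefore put the 2 peaks in opposite order, the start site first in replicate 1 and the intron first in replicate 2. Between the peaks and the gene's end, further candidates had pooled signals of 22.0 to 29.5 and lay in coding sequence. The next gene upstream, CG14965, starts on the other strand, 595 bp from the first summit.

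Hsc70-5 (FBgn0001220, chr2R:14252598-14256192, reverse strand) encodes the mitochondrial Hsp70. Its peak spanned chr2R:14256037-14256336, with the summit 5 bp downstream of the outer start. The signal was 37.2 in replicate 1 and 41.0 in replicate 2, against 77.6 in the pooled list, at rank 1280 of 2088. Neither replicate's own list counted it as thresholded: the deposited score was 612 in replicate 1 and 795 in replicate 2, and 1000 in the pooled list. A second pooled thresholded peak, chr2R:14256245-14256544, overlapped the first, and its summit lay 208 bp away, 203 bp upstream of Hsc70-5 and 98 bp upstream of CG8531 on the other strand. It had a signal of 8.07 and rank 2059, with 5.78 in replicate 1 and no summit within 100 bp in replicate 2, and its summit was not in the conservative list. Pooled thresholded peaks of signal below 20 numbered 54 (2.59% of the list), and all 54 lay within 500 bp of a stronger one.

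**Figure D2:**
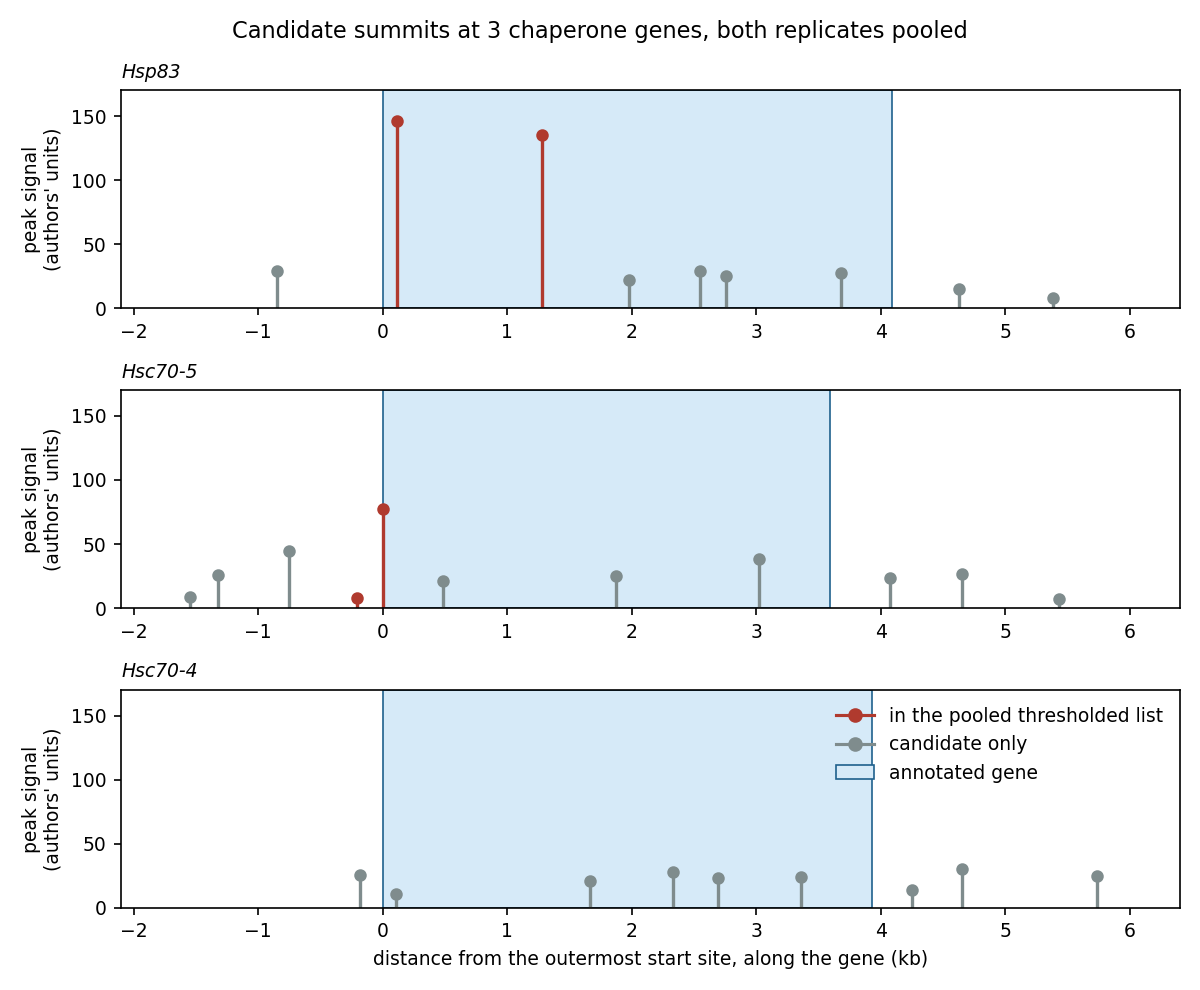
Pooled candidate summits at Hsp83, Hsc70-5 and Hsc70-4, with distance from the outermost start site along the gene in kb on the x axis and peak signal in the authors' units on the y axis. Red marks thresholded summits, grey marks other candidates and the blue box is the annotated gene. Hsp83 has 2 tall peaks (146 and 135), Hsc70-5 has 1 at its start (77.6) with a low one beside it (8.07), and Hsc70-4 has candidates of up to 30.3.

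Hsc70-4 (FBgn0266599, chr3R:15242687-15246614, forward strand), the main cytosolic Hsc70 and a clathrin-uncoating ATPase, had 9 pooled candidates in its window and none thresholded. The highest, 30.3, lay beyond the end of the gene. At its 6 annotated start sites the best had a signal of 25.3, 180 bp upstream of the outermost start, at rank 43569 of 151546. In the replicates' own lists the best at a start site was 14.4 in replicate 1 and 13.6 in replicate 2. These start site values lay above the median of the whole ranked lists, which was 18.6 pooled, 11.4 in replicate 1 and 12.0 in replicate 2. By rank they stood in the top 28.7% of the pooled list, 32.3% of replicate 1 and 40.1% of replicate 2.

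Hsc70-3 and Hsf were without any pooled candidate in their windows. Hsc70-3 (FBgn0001218, chrX:11801696-11807117, reverse strand), the BiP chaperone of the endoplasmic reticulum, is the longest of the 10 genes at 5422 bp. The nearest pooled candidate lay 10608 bp from the gene and the nearest thresholded summit 11503 bp from it. Replicate 1 alone listed 4 candidates in the window, the best of signal 18.6 at rank 17818 of 116767, and replicate 2 listed none. Hsf (FBgn0001222, chr2R:18130303-18134634, reverse strand) had its nearest pooled candidate 5648 bp away and its nearest thresholded summit 35046 bp away. Replicate 1 listed 2 candidates in the Hsf window, the best of signal 17.3, and replicate 2 listed none. The heat shock factor gene itself was thus among the genes with no called region in the pooled data.

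**Figure D3:**
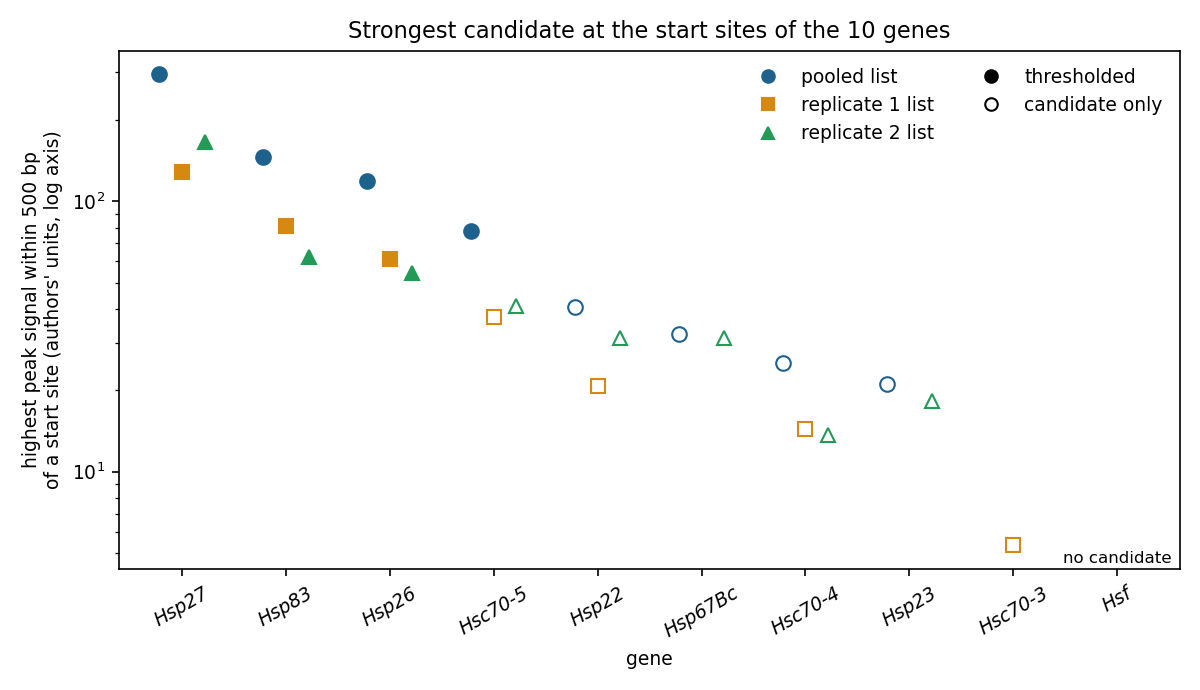
Highest signal within 500 bp of a start site for each of the 10 genes (y axis, authors' units on a log axis; scales differ between lists), with circles for the pooled list, squares for replicate 1 and triangles for replicate 2. Filled symbols are thresholded and open ones are candidates only. The pooled signal runs through 295 at Hsp27, 146 at Hsp83, 119 at Hsp26 and 77.6 at Hsc70-5 to 21.1 at Hsp23, with no pooled value for Hsc70-3 and Hsf.

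By pooled signal at the start site the order was Hsp27, Hsp83, Hsp26, Hsc70-5, Hsp22, Hsp67Bc, Hsc70-4 and Hsp23, as the plot of start site signals shows. Hsp27, Hsp83 and Hsp26 held the first 3 places in both replicates too, with a signal of 54.4 or more, and the other genes had 41.0 or less. The lowest places did not hold in both. In replicate 2 Hsp23, at 18.2, stood above Hsc70-4, at 13.6. Replicate 1 had no start site candidate at Hsp67Bc or Hsp23. With 2 replicates the error of a single signal is poorly known, and it is given here as the ratio of the replicate 2 to the replicate 1 signal. This was 1.30 at Hsp27, 0.767 at the Hsp83 start site, 1.48 in the Hsp83 intron, 0.891 at Hsp26 and 1.10 at Hsc70-5. Over the 1909 pooled thresholded peaks of signal 20 or more with a candidate in both replicates it had a median of 1.07, with 0.655 and 1.67 as the 10th and 90th percentiles. All 5 ratios fell inside that range. The Hsp26 and Hsp83 intron peaks changed places between the replicates, so their order cannot be told from these lists. Hsp27 was above each of the other 4 peaks in every list.

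**Figure D4:**
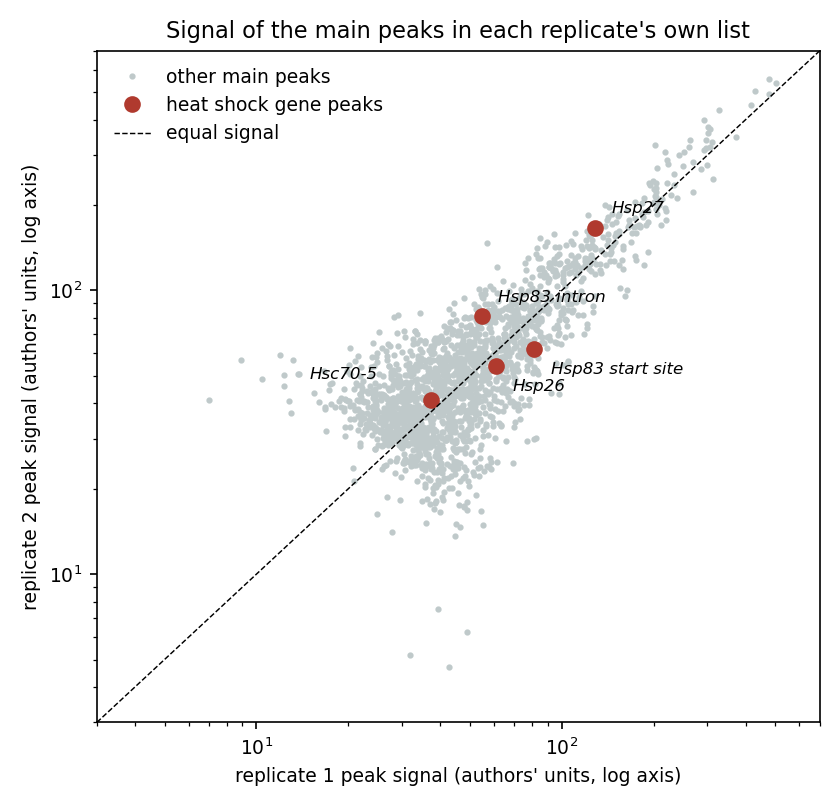
Signal of each pooled thresholded peak in the replicate 1 list (x axis) and the replicate 2 list (y axis), both in the authors' units on log axes, for 1909 peaks of pooled signal 20 or more. Red points are the heat shock gene peaks and the dashed line is equal signal. Hsp27 sits at 128 and 166, and the Hsp83 start site and intron peaks fall on opposite sides of the line.

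Set against all protein-coding genes, the start site count was 4 of 10 (40%) for these 10 genes and 8.36% for the 13945 protein-coding genes (Wilson 95% interval 7.91 to 8.83). In the gene window it was 5 of 10 (50%) against 18.4% (interval 17.8 to 19.1), where Hsp23 counts through the Hsp27 peak, so the 5 genes stand for 4 separate places. The conservative list gave 4 of 10 at a start site, against 8% of protein-coding genes. The replicate 1 list gave 3 of 10, against 6.02%, and the replicate 2 list 3 of 10, against 5.67%, with Hsc70-5 missing from both. The 10 genes were picked with earlier results of these data known, 5 of them share 1 locus, and no test was made on these counts. Together with the 48 further heat shock and chaperone genes described at the end, 5 of 58 genes (8.62%) had a thresholded start site summit and 10 of 58 (17.2%) one in the window, close to the shares of all protein-coding genes. More than 1 thresholded summit in the pooled list was found in the window of Hsp83 and Hsc70-5, 2 of 10, against 3.87% of protein-coding genes. Hsp83 had 2 in the conservative list and in each replicate list as well. Hsc70-5 had 1 in the conservative list and none in either replicate list, and Hsp26 had 2 in the replicate 2 list.

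Candidate regions, thresholded or not, lay at most start sites both among the heat shock genes and elsewhere. A pooled candidate lay at a start site of 8 of 10, against 74.7% of protein-coding genes, and the window held no pooled candidate for 2 of 10, against 7.79%. The median number of candidates in a window was 6.5 for the 10 genes and 8 for all protein-coding genes, with median gene lengths of 2814.5 and 2166 bp. Among genes with a thresholded start site summit, the median of the strongest was 132 over the 4 heat shock genes and 104 over all 1166 genes.

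Base composition at the summits was mixed. Within 50 bp of the summit the GC content was 28.7% at Hsp27, 23.8% at Hsp26, 20.8% in the Hsp83 intron, 46.5% at the Hsp83 start site and 32.7% at the Hsc70-5 start site. The pooled thresholded summits on the arms had a median of 32.7% and quartiles of 26.7% and 41.6%. The Hsp83 intron and Hsp26 summits thus lay below the lower quartile and the Hsp83 start site summit above the upper one.

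Heat shock elements were looked for on both strands as GAANNTTC or TTCNNGAA, which are the palindromes of 2 inverted units. An element lay within 100 bp of 2 of the 6 thresholded summits in the windows of the 10 genes, those of Hsp26 and the Hsp83 start site, against 9.65% of the 2062 pooled thresholded summits on the arms. At Hsp26 the centre of the nearest element was 4.5 bp from the summit, and at the Hsp83 start site 65.5 bp. The strongest peak, that of Hsp27, had none within 100 bp, and the nearest one in its upstream region began 338 bp before the start. The longer element of 3 alternating units was at none of the 6 summits and within 100 bp of 0.0485% of all.

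GA repeats were counted as GAGAG on both strands, with overlapping matches counted separately. Within 100 bp of the summit there were 6 matches at Hsp26 and 1 at Hsp27, which at Hsp26 are the runs of ctctct near the 3′ end of the stretch above, and 24.2% of all pooled thresholded summits had a match. TATAAA lay within 100 bp of 3 of the 6 summits, against 34.0% of all. No GAGAG match overlapped a heat shock element at these summits. TATCGATA, the DNA replication-related element, lay within 100 bp of none of the 6 and of 2.28% of all.

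Heat shock elements also lay in promoters without a peak. Those of Hsp23 and Hsp22, which had no thresholded start site peak, are shown for comparison with the stretches above. Each stretch below runs 250 bases upstream to 50 bases downstream of a start, with elements again in capitals.
Hsp23 promoter, chr3L:9381632-9381931, forward strand: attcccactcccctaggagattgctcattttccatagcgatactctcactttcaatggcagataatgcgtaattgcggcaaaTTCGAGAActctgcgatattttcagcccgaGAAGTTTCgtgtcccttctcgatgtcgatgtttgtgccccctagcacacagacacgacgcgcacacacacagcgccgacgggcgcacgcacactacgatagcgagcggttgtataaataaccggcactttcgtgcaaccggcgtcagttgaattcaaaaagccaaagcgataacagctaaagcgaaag
Hsp22 inner promoter, chr3L:9373747-9374046, forward strand: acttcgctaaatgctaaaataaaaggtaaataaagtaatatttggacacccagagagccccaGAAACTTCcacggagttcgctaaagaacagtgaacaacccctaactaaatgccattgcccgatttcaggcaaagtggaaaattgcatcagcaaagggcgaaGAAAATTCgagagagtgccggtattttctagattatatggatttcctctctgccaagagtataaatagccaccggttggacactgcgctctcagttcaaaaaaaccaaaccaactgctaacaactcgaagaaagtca
The Hsp23 promoter held 2 elements, 168 and 138 bp upstream of the start, and the promoter of the inner Hsp22 start held 2 elements and 5 GAGAG matches. In windows of this kind around the outermost start, an element was present for 5 of the 10 genes, which were Hsp23, Hsp26, Hsp67Bc, Hsc70-3 and Hsc70-4, against 15.9% of protein-coding genes. Of these 5, Hsp26 alone had a thresholded start site summit. The other genes with such a summit, Hsp27, Hsp83 and Hsc70-5, had no element in that window. At Hsp83 this depended on the start used. The element near its start site summit began 179 bp downstream of the outermost start. That is outside the window, but within 250 bp upstream of the inner start at 3193216. TATAAA was in 8 of the 10 windows, against 45.8% of protein-coding genes with a match anywhere in the window. It lay 28 or 27 bp upstream of the start at Hsp27, Hsp67Bc, Hsp23 and Hsc70-4. The share of protein-coding genes with a match at that distance was not counted. GAGAG was in 4 of 10, against 29.7%, and TATCGATA at Hsp83 alone, 182 bp upstream, against 9.36%. The absence of a match says only that these letters are not in the window.

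**Figure D5:**
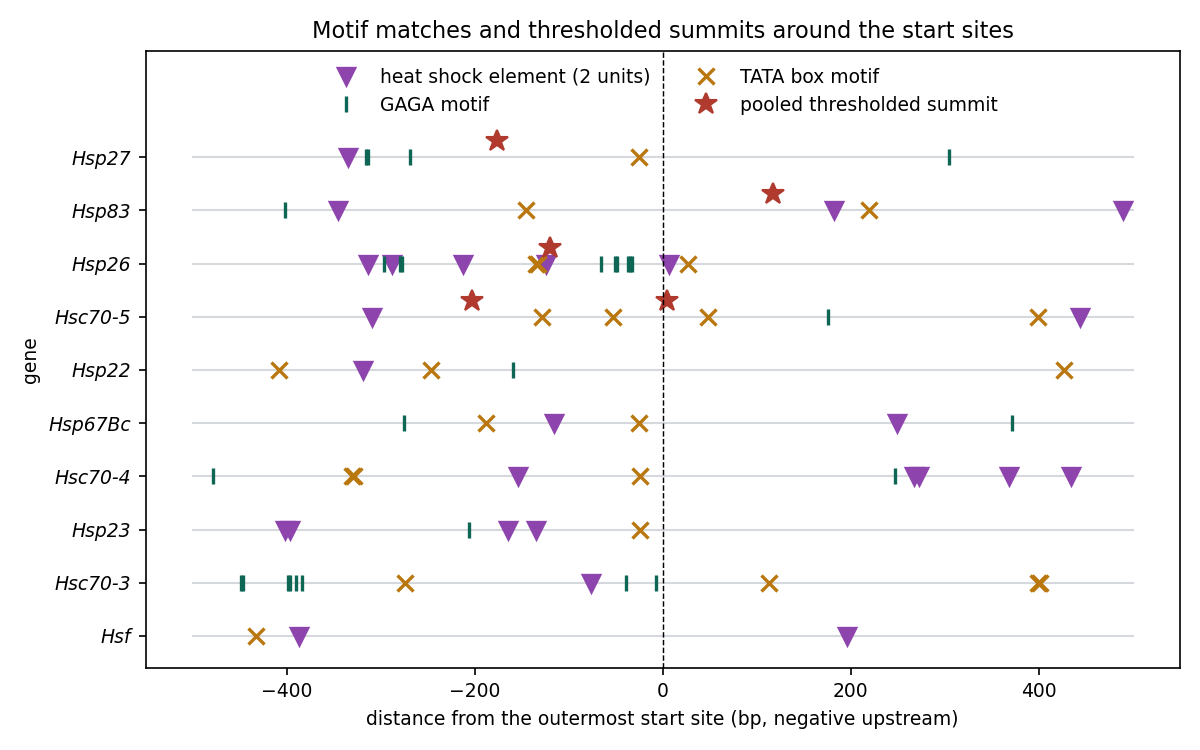
Motif matches around the outermost start site of each of the 10 genes, with distance from the start in bp on the x axis (negative upstream). Triangles are heat shock elements of 2 units, bars GA repeats, crosses TATA box motifs and stars pooled thresholded summits. The Hsp26 summit lies 4.5 bp from the centre of an element. Every gene has an element within the 500 bp drawn on each side. How many of all protein-coding genes have one in a span of this length was not counted. Hsp26, Hsp27, Hsp83 and Hsc70-5 also have a thresholded summit in that span. Hsp22, Hsp23, Hsp67Bc, Hsc70-3, Hsc70-4 and Hsf have none.

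A wider list of heat shock, chaperone and co-chaperone genes was read in the same way. It matched 48 genes, among them the stress-inducible Hsp70 copies, the CCT chaperonin subunits, the Hsp60 genes and the J-domain and Hsp90 co-chaperone genes. A thresholded summit at a start site was found for 1 of the 48 (2.08%), against the 8.36% of protein-coding genes given above. That gene was mrj, a J-domain co-chaperone, with a summit of signal 348 in an intron, 294 bp upstream of the nearest mrj start, at rank 69 of 2088. A second mrj summit of 153 lay 667 bp upstream of another start. Both mrj peaks overlapped thresholded peaks of both replicates, and the first exceeded the Hsp27 signal in the pooled list.

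In the gene window 5 of the 48 genes (10.4%) had a thresholded summit, against 18.4% of protein-coding genes. Beside mrj they were stv, which encodes the co-chaperone Starvin, with a summit of 99.9 lying 572 bp upstream, and CG11267, a mitochondrial chaperonin of the Hsp10 kind, whose window held a summit of 278 that was 122 bp from the start of Icmt and 2094 bp from its own. The remaining 2, CG4461 and Hsp67Ba, counted through the Hsp26 peak. A pooled candidate was at a start site of 29 of the 48 (60.4%), against 74.7% of protein-coding genes, and 10 (20.8%) had none in the window, against 7.79%.

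Those without a candidate included Hsp68 and the Hsp70 copies Hsp70Bb and Hsp70Bbb, stress-inducible genes, as well as the J-domain gene DnaJ-1. The other Hsp70 copies had candidates in their windows with best pooled signals of 29.5 at Hsp70Aa, 45.8 at Hsp70Ab, 20.2 at Hsp70Ba and 32.9 at Hsp70Bc. These copies are nearly identical in sequence, and how reads that match several of them were placed is not given in the sources used here, so their values are uncertain. The Hsp90 co-chaperone gene Stip1 had the strongest start site candidate of the list after mrj, 60.5, and it was not thresholded.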

How the data were processed

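The authors deposited peak lists on dm6, per the labels, each with a signal value per peak, a score of up to 1000 and, in another column, a second score that was not used. Per the deposited file descriptions, lists were thresholded on the irreproducible discovery rate or ranked in full, for each replicate and for both pooled. Which aligner and peak caller were used is not given in the sources used here. The lists hold no read counts, so depth is unknown and intervals cover counting error only. Of the 4 ranked lists, 32 columns tied to no sample were left unused. Signals were compared within a list only, apart from the ratio of the replicates.

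Summits were joined to Ensembl release 115 genes with Python 3.11.15, pandas 2.3.3 and NumPy 2.4.6, distances were to the nearest start of the gene, and lists were matched by peaks sharing 1 bp, or by summits within 100 bp. Figures were drawn with matplotlib 3.10.9. The steps were tested on simulated data. Named genes were the 10 members, their neighbours in the 67B cluster, the genes nearest their peaks and listed chaperone genes with a start site peak; the other chaperone genes named were chosen after their values were seen. Members and lists were chosen with earlier results of these data known. Alternatives were each replicate alone, the conservative list, peaks in both replicates, signals at or above the median, and other windows and motifs.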

Additional observations from a re-analysis of the deposited data

How the results depend on the processing

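Of 52 alternatives over 8 counts and shares, 35 stayed close to the value given and 17 moved, where close means within 1.5 times for a count and within the Wilson 95% interval for a share, so that a share counts as moved at a smaller step than a count. The share of protein-coding genes with a start site summit, 8.36%, was 5.20% with peaks at or above the median signal, 4.41% with peaks found in both replicates, 10.3% within 1000 bp, 6.38% within 250 bp and 5.67 to 6.02% with 1 replicate alone. The share in the gene window, 18.4%, was 14.7% with 1 kb, 27.4% with 5 kb, 11.1% at or above the median signal, 9.34% in both replicates and 12.2 to 13.1% with 1 replicate alone. Among the 10 genes the window count of 5 became 4 with 1 kb and 7 with 5 kb, which adds Hsp22 and Hsc70-4, and 4 in both replicates, in either replicate alone and at or above the median signal. The start site count of 4 became 3 in those last 3 settings, losing Hsc70-5. Of the 48 chaperone genes, 2 had a start site summit within 1000 bp and 0 within 250 bp, against 1. Elements lay within 50 bp of 1 of the 6 summits (5.09% of all summits) and within 200 bp of 5 (17.7%), against 2 within 100 bp, and 3-unit elements near 0. Support in both replicates was 4 of 6 peaks under each overlap rule. Of all 2088 pooled thresholded peaks, 881 were found in both replicate lists. No paired analysis was possible because the series has 1 group. With 10 genes, 5 of them in 1 locus, a share moves by 10 points for each gene.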

Other observations

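The stress-inducible noncoding RNA gene lncRNA:Hsromega, looked up beside the protein-coding genes, had 6 pooled candidates in its window and none in the thresholded list. The best had a signal of 80.3, above the 77.6 of the thresholded Hsc70-5 peak, a score of 1000 and rank 1266, 177 bp from the start site. It is 1 of 88 pooled ranked peaks (4.04% of 2176) with a score of 830 or more that are absent from the thresholded list analysed here, and the reason was not tested.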
